A study of Mus musculus with 12 samples.

Results

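Meox2 and 8 further transcription factor genes of mesenchymal cells (Meox1, Twist1, Twist2, Snai1, Snai2, Zeb1, Zeb2 and Prrx1) were followed across all 12 arrays of the series. The members were taken by symbol, with every array probe whose transcript carries one of the 9 symbols, which gave 11 probes out of 55681. The set was built around Meox2, and Meox2 was chosen by its values, because it was higher on the arrays labelled Srf and lower with Mkl1 and with both Actb hairpins. Its differences from the controls are therefore described below without a test, and nothing is supported by them.

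The cells were mouse neural progenitor cells (NPCs) differentiated in vitro from embryonic stem cells and kept in culture with EGF and bFGF, and every culture received a retroviral vector. For overexpression the vector carried Mkl1, Srf or, in the control, the fluorescent protein EGFP. For knockdown it expressed hairpin shActb_1 or hairpin shActb_2, both against the β-actin gene Actb, or in the control a hairpin against EGFP (shEGFP). Each of the 6 groups held 2 arrays, which the study calls technical duplicates for the Actb knockdown, and where separate cultures are not stated the p-values measure only the spread between arrays. The controls thus carry a vector of their own, and no untransduced NPCs were on the arrays used here. Srf, the serum response factor, regulates cytoskeletal and immediate-early genes with its cofactor Mkl1, which monomeric actin holds back from the nucleus.

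Between 59.3% and 72.4% of probes were well above background on an array, and arrays of a group correlated at r = 0.993 to 0.998. Of 10 neural progenitor markers, 7 were well above background on all 12 arrays, Nes, Sox1, Sox2 and Pax6 among them, and so were the fibroblast collagen genes Col1a1, Col1a2 and Col3a1. The Actb probe was lower with shActb_1 (log2 difference -0.53, adjusted p = 0.00128) and with shActb_2 (-0.65, adjusted p = 0.000196), under 2-fold in each case. Both Srf probes went against the label, at -2.46 (adjusted p = 2.54e-06) and -1.40 (adjusted p = 0.000266) on the arrays labelled Srf, and Mkl1 (listed as Mrtfa) differed by 0.20 and 0.17 on the Mkl1 arrays (adjusted p = 0.12 and 0.312). Whether these probes can read the vector transcripts was not tested, so every direction drawn from the arrays labelled Srf or Mkl1 rests on the label. All overexpression arrays shared slide 1 and shEGFP shared slide 2 with shActb_1, but shActb_2 had slide 3 to itself, so that for shActb_2 slide and group cannot be told apart.

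Meox1 and Meox2 are homeodomain factors known from somites, where they help to pattern the axial skeleton and limb muscle. Twist1 and Twist2 are basic helix-loop-helix factors that pair with E proteins, and the Id proteins block such pairs by binding the E proteins themselves. The zinc finger factors Snai1, Snai2, Zeb1 and Zeb2 are known as repressors of epithelial genes such as Cdh1 in the epithelial-mesenchymal transition (EMT), and Prrx1 is a paired-related homeodomain factor of limb bud and craniofacial mesenchyme. None of these genes is usually counted among the defining markers of neural progenitors, although Zeb1 and Zeb2 are also known from the nervous system.

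Promoter sequence is shown for Meox2, the gene the set was built around, and for Prrx1, the member that was lower with Mkl1. The RefSeq table (GRCm38.p6) held promoters for 6 of the 9 members, and the 250 bases before the annotated start were searched on both strands for 6 motifs. Meox2 starts on the + strand of chromosome 12 and the bases shown are chr12:37108290-37108539, while Prrx1 lies on the - strand of chromosome 1 with chr1:163313651-163313900 shown. Capitals mark every match to a searched motif.
Meox2: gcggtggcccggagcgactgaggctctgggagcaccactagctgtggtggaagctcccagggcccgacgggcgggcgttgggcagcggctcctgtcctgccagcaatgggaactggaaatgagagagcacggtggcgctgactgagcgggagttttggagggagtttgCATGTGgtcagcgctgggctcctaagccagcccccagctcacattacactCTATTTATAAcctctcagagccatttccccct
Prrx1: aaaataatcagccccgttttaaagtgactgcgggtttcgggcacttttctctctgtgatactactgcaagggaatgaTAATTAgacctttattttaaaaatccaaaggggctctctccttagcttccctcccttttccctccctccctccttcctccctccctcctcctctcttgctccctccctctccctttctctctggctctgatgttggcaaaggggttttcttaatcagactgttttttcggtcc
In the Meox2 window, the capitals are CATGTG, an E-box (CANNTG, the type of site bound by Twist dimers) that begins 82 bases before the start, and an A/T-rich MEF2 box that begins 32 bases before it. TATAAA on the opposite strand lies inside that MEF2 box. The Prrx1 capitals are TAATTA, a core read by many homeodomain proteins, beginning 173 bases before the start. Among all 32851 promoters of the table, CANNTG was present in 66.2%, the MEF2 box in 2.92%, TATAAA in 12.4% and TAATTA in 4.84%. The CArG box, the site that Srf binds, was present in 1.47% of all promoters and in none of the members' windows. CAGGTG, the E-box form read by Snai and Zeb proteins, was present in 17.2% of all promoters and, among the members, in Snai1 alone, beginning 126 bases before the start. TATAAA was also found 126 bases before the start of Twist1. These matches describe letters in a short window and say nothing of binding.

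Levels below are log2 signals relative to the 75th percentile of the array, so a positive level means a signal brighter than that percentile, and levels of different probes are not set against each other. The Meox2 probe was well above background on all 12 arrays. It read -1.56 and -1.82 on the EGFP arrays, -3.26 and -3.38 on the Mkl1 arrays, and -0.23 and -0.22 on the arrays labelled Srf. In the knockdown experiment it read -1.54 and -1.31 with shEGFP, -4.75 and -4.89 with shActb_1, and -3.39 and -3.52 with shActb_2. Against their own control, no arrays of the Mkl1, Srf or hairpin groups overlapped, and the SD of the duplicates was at most 0.18. The arrays labelled Srf were higher than EGFP by 1.46 (SE 0.12, n = 2 against 2), or 2.75-fold. Mkl1 differed from EGFP by -1.63 (SE 0.12), to 32.3% of the control signal. With shActb_1 the difference was -3.39 (SE 0.12), to 9.51% of the shEGFP signal, and with shActb_2 it was -2.03 (SE 0.12), to 24.4%. These values chose the gene, and Srf and Mkl1 share the EGFP arrays while the hairpins share the shEGFP arrays. After the normexp background correction, which adds an offset to every signal, the same differences were 1.22, -1.06, -2.13 and -1.49. As RNA was taken from whole cultures, fewer cells expressing a gene and less RNA per cell cannot be told apart.

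In order of level, the arrays labelled Srf were followed by shEGFP, EGFP, Mkl1, shActb_2 and shActb_1. The largest step was that from EGFP down to Mkl1, 1.63, with a sign fixed by how the gene was chosen. The steps from Srf to shEGFP, which come from different experiments, and from shActb_2 to shActb_1 were 1.20 and 1.36. The neighbours shEGFP and EGFP differed by 0.26 (SE 0.12, adjusted p = 0.11, limma), with arrays 0.02 apart at the nearest. The neighbours Mkl1 and shActb_2 were 0.14 apart beside SDs of 0.08 and 0.09, and they come from different experiments. The difference between the hairpins was not used to choose the gene and could be tested. Meox2 was higher with shActb_2 than with shActb_1 by 1.36 (SE 0.12, 95% interval 1.09 to 1.63, adjusted p = 0.000399), or 2.57-fold, but the normexp correction left 0.64, under the 2-fold criterion, with an adjusted p of 0.00387. The Actb probe itself differed by -0.12 between the hairpins (adjusted p = 0.112).

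**Figure D1:**
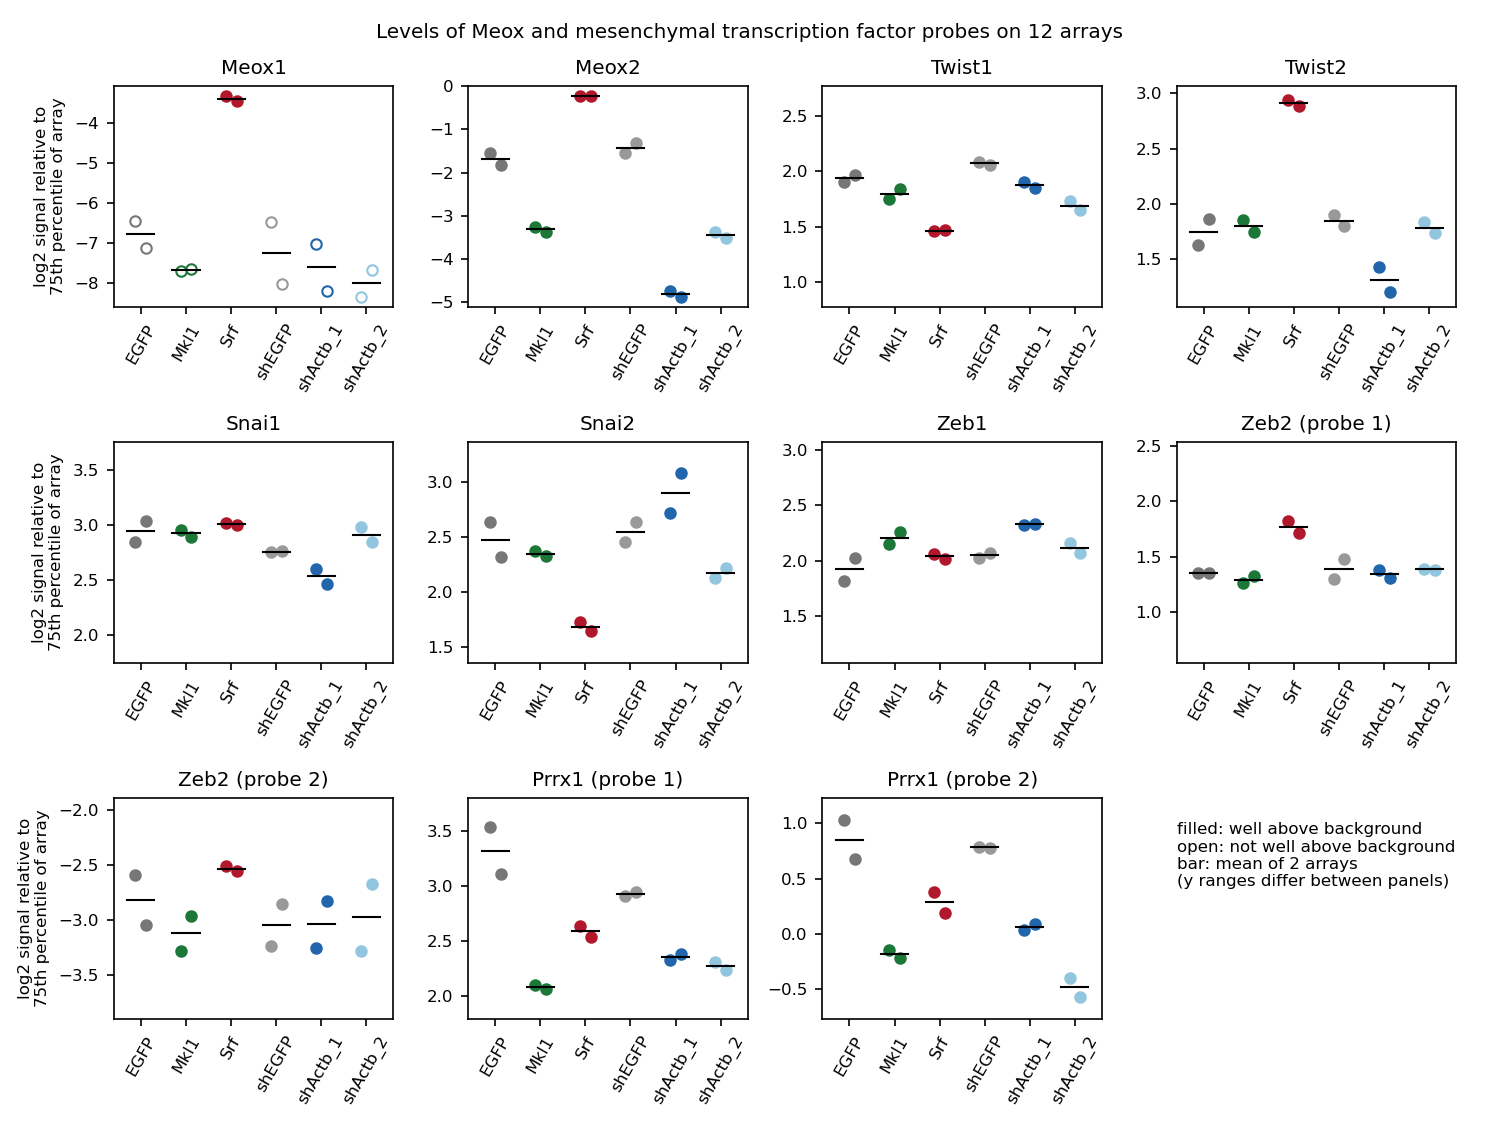
Levels of the 11 probes on each of the 12 arrays, as log2 signal relative to the 75th percentile of the array (y, range set per panel) by group (x), with points for arrays and bars for the mean of 2. Meox2 is lowest with shActb_1 at -4.75 and -4.89, and Meox1 is well above background only on the arrays labelled Srf, at -3.33 and -3.46.

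Its paralog Meox1 showed a signal on the arrays labelled Srf only. There its probe read -3.33 and -3.46 and was well above background on both arrays, while on the 10 other arrays it lay between -8.35 and -6.45 and was well above background on none. As the probe was not well above background in EGFP or Mkl1, only a bound is available, set by the lowest signal that was well above background on those arrays. On that basis Meox1 was at least 3.11-fold higher than in EGFP and at least 3.97-fold higher than in Mkl1. The limma adjusted p-values, 0.00433 and 0.00139, belong to the fitted differences and do not test these bounds. The probe entered the test through the arrays labelled Srf alone and had to be higher there to enter, so it supports no count. Its fitted difference from EGFP, 3.39, depends on readings near background and became 1.04 after the normexp correction. In the hairpin comparisons Meox1 was not tested.

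Of the 10 probes of members other than Meox2, 2 were called on the arrays labelled Srf against EGFP, that is, at an adjusted p under 0.05 over all probes tested and a fold change over 2. Both, Meox1 and Twist2, were higher, and over the whole array 5.54% of probes were called in this comparison. Without Meox1, 1 probe was called. Twist2, a factor of dermal and bone-forming mesenchyme, read 2.94 and 2.89 on the arrays labelled Srf against 1.63 and 1.86 in EGFP. These groups lay far apart, and Twist2 rose by 1.17 (SE 0.11, adjusted p = 0.000298), or 2.25-fold. Leaving out any 1 array gave 1.05 to 1.28 and kept the call. Its close relative Twist1, a factor of head mesenchyme and limb, read 1.46 and 1.47 against 1.91 and 1.96. The Twist1 difference was in the opposite direction, -0.47 (SE 0.06, adjusted p = 0.00139), under 2-fold.

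No Snai or Zeb probe was called on the arrays labelled Srf. Snai2, a repressor also known from neural crest, read 1.73 and 1.64 against 2.64 and 2.32 in EGFP, a difference of -0.79 (SE 0.14, adjusted p = 0.00664) that stayed under 2-fold. Snai1 read 3.02 and 3.00 against 2.85 and 3.04, and these arrays overlapped (difference 0.07, adjusted p = 0.582). Zeb1 overlapped too, with a difference of 0.12 (95% interval -0.07 to 0.31, adjusted p = 0.319). The brighter Zeb2 probe read 1.82 and 1.71 against 1.35 and 1.35, a difference of 0.42 (SE 0.08, adjusted p = 0.00671), and the dimmer one differed by 0.28 (SE 0.26, adjusted p = 0.464). Prrx1 has 2 probes, designed to different RefSeq transcripts, and they differed by -0.73 (adjusted p = 0.00491) and -0.57 (adjusted p = 0.0143). Counting an adjusted p alone, 7 of 10 probes differed, 3 higher (Meox1 among them) and 4 lower, beside 25.5% of all probes.

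With Mkl1, 2 of 9 tested probes of the other members were called, beside 2.78% of all probes, and both belong to Prrx1. The brighter probe (probe 1) read 2.11 and 2.06 with Mkl1 against 3.53 and 3.11 in EGFP. The dimmer probe (probe 2) read -0.15 and -0.22 against 1.03 and 0.68. Prrx1 fell by 1.23 (SE 0.12, adjusted p = 0.001) and 1.03 (SE 0.12, adjusted p = 0.00188) on the log2 scale, to 42.5% and 48.8% of the control. The EGFP arrays were themselves 0.42 apart for probe 1, and without the higher EGFP array (replicate 1) the differences were -1.02 and -0.86, so that probe 2 lost its 2-fold. When the spread was estimated from the Mkl1 and EGFP arrays only, neither probe was called (adjusted p = 0.0788 and 0.0836). The other members were close to the control. Twist2, which rose on the arrays labelled Srf, read 1.85 and 1.74 with Mkl1 and overlapped EGFP (difference 0.05, 95% interval -0.20 to 0.30, adjusted p = 0.752). Zeb1 was higher by 0.28 (SE 0.08, adjusted p = 0.0454), and the remaining differences lay between -0.30 and -0.02 with adjusted p-values over 0.05. At an adjusted p alone 3 of 9 differed, beside 20.8% of all probes.

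Set directly against Mkl1, the arrays labelled Srf had 2 of 10 probes called, Meox1 and Twist2, beside 5% of all probes, and Twist2 alone without Meox1. Twist2 was higher by 1.11 (SE 0.11, adjusted p = 0.000328). Prrx1 was higher by 0.50 (adjusted p = 0.0224) and 0.47 (adjusted p = 0.0296), Zeb2 probe 1 by 0.47 (adjusted p = 0.00358), and Snai2 was at -0.66 (adjusted p = 0.0133) and Twist1 at -0.33 (adjusted p = 0.00654), all under 2-fold. Zeb2 probe 2 (0.59), Snai1 (0.09) and Zeb1 (-0.16) had adjusted p-values over 0.05. An adjusted p under 0.05 was thus found for 7 of 10, Meox1 among them, beside 25.6% of all probes. An unadjusted one was found for the same number, beside 36.6%. Meox1 entered this test through the arrays labelled Srf alone. Meox2 differed by 3.09, with a sign fixed by how the gene was chosen.

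With shActb_1, none of the 9 tested probes of the other members was called, beside 1.61% of all probes, although 3 had an adjusted p under 0.05 in limma, beside 9.42% of all probes, and 7 an unadjusted p under 0.05, beside 22.7%. The 3 were the Prrx1 probes and Twist2, all lower. Prrx1 probe 1 read 2.33 and 2.39 against 2.91 and 2.94 with shEGFP (difference -0.57, SE 0.12, adjusted p = 0.0312), and probe 2 read 0.03 and 0.09 against 0.79 and 0.77 (difference -0.72, SE 0.12, adjusted p = 0.0123). Twist2 read 1.43 and 1.20 against 1.90 and 1.80 (difference -0.53, SE 0.11, adjusted p = 0.0223). None of these groups overlapped, but leaving out 1 array gave adjusted p-values of 0.0652 to 0.161 for Prrx1 and 0.0429 to 0.146 for Twist2. Meox2, at -3.39, thus stood beside differences of -0.72 to 0.35 for the other members on the same arrays.

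With shActb_2, 1 of 9 probes was called, probe 2 of Prrx1, beside 6.31% of all probes. It read -0.40 and -0.57 against 0.79 and 0.77 with shEGFP, and fell by 1.27 (SE 0.12, adjusted p = 0.000394), to 41.5%. The probes of Prrx1 disagreed in size here, as probe 1 differed by -0.65 (SE 0.12, adjusted p = 0.00545). Twist1 was lower by less than 2-fold, 1.73 and 1.65 against 2.09 and 2.06 (difference -0.38, SE 0.06, adjusted p = 0.00267). The remaining probes ran from -0.38 for Snai2 (adjusted p = 0.0721) to 0.16 for Snai1 (adjusted p = 0.185). At an adjusted p alone 3 of 9 differed, beside 40.3% of all probes.

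**Figure D2:**
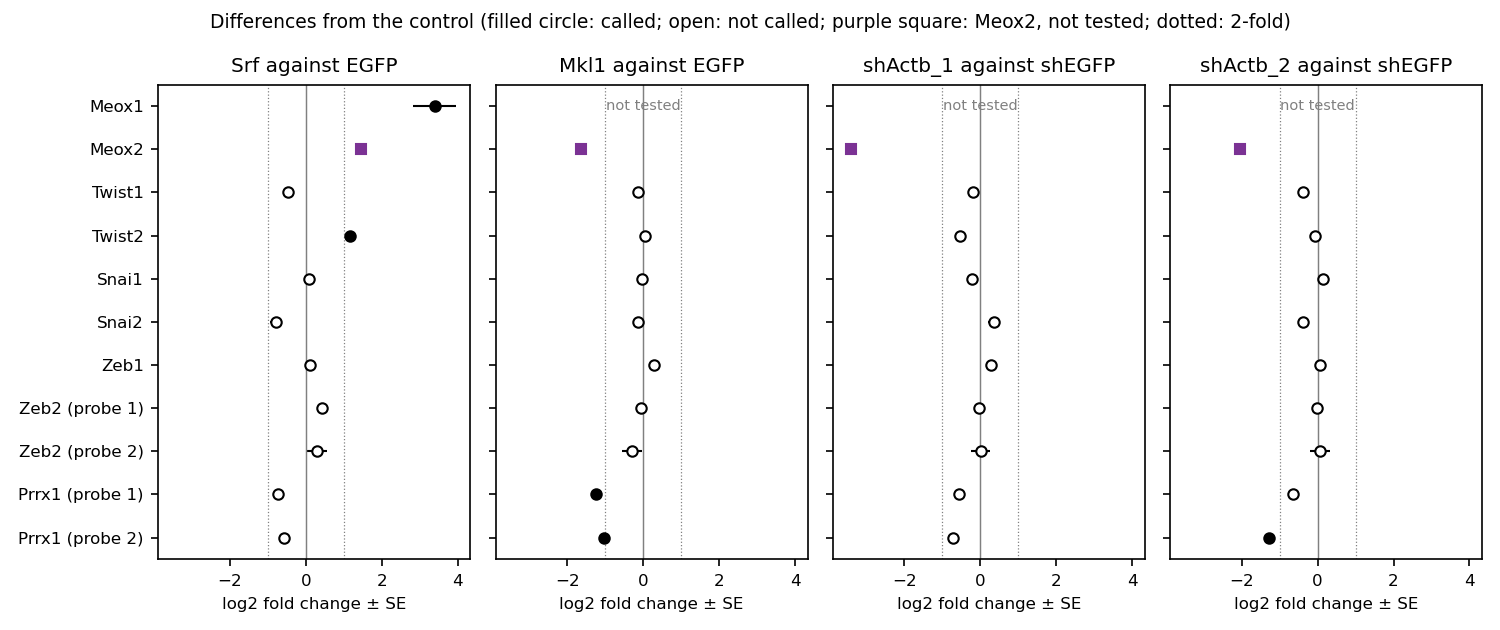
Log2 fold changes (x, with SE) of the 11 probes (y) in the comparisons with the control. Filled circles passed the test with over 2-fold, squares are Meox2, which was not tested. Prrx1 lies left of 0 in all panels, from -0.57 to -1.27, whereas Twist2 is at 1.17 on the arrays labelled Srf and at 0.05 with Mkl1.

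Between the hairpins, 0 of the 9 tested probes of the other members were called, beside 5.03% of all probes. At an adjusted p alone 4 differed in limma, beside 32.1% of all probes, and 6 at an unadjusted p under 0.05, beside 44%. Snai2 read 2.13 and 2.22 with shActb_2 against 2.72 and 3.08 with shActb_1 (difference -0.73, adjusted p = 0.00843), and probe 2 of Prrx1 differed by -0.55 (adjusted p = 0.0141). Twist2 and Snai1 were higher with shActb_2, by 0.47 (adjusted p = 0.0142) and 0.38 (adjusted p = 0.0138). Leaving out 1 array gave adjusted p-values of up to 0.0864 for Twist2, 0.0869 for Snai1 and 0.101 for Prrx1 probe 2, and of 0.0157 to 0.0491 for Snai2. Between the controls shEGFP and EGFP, again 0 of 9 were called, beside 10.2% of all probes. The only p under 0.05, beside 37.5% of all probes with an adjusted and 49.3% with an unadjusted p under 0.05, was that of Prrx1 probe 1, lower with shEGFP by less than 2-fold (difference -0.39, adjusted p = 0.0436). Vector, experiment and slide all differ between these controls and cannot be told apart.

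The genes whose levels ran most like Meox2 over the 12 arrays were found among 5402 named genes that varied by at least 2-fold between group means, as a description, since the arrays are 6 groups of duplicates and share controls. The highest Pearson r values were those of Pitpnm3 (0.978), Rspo3 (0.975), Dcn (0.973), Arap1 (0.971) and Rarb (0.969). Rspo3 is a secreted enhancer of Wnt signalling, Dcn encodes decorin, a collagen-binding proteoglycan of connective tissue, and Rarb is a retinoic acid receptor. Dcn differed from the controls by 0.85 on the arrays labelled Srf, -1.79 with Mkl1, -1.96 with shActb_1 and -1.55 with shActb_2. Rspo3 differed by 0.35, -1.24, -2.0 and -1.33 in the same order. The lowest r values were those of Plekho2 (-0.978), Krt13 (-0.955), Ddn (-0.953), Eppk1 (-0.946) and Prune2 (-0.937), among them the keratin Krt13 and the epithelial plakin Eppk1. Eppk1 differed by -1.10, 1.16, 1.42 and 0.93. Of the other members, Twist2 had the highest r with Meox2 (0.813) and Zeb1 the lowest (-0.761).

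**Figure D3:**
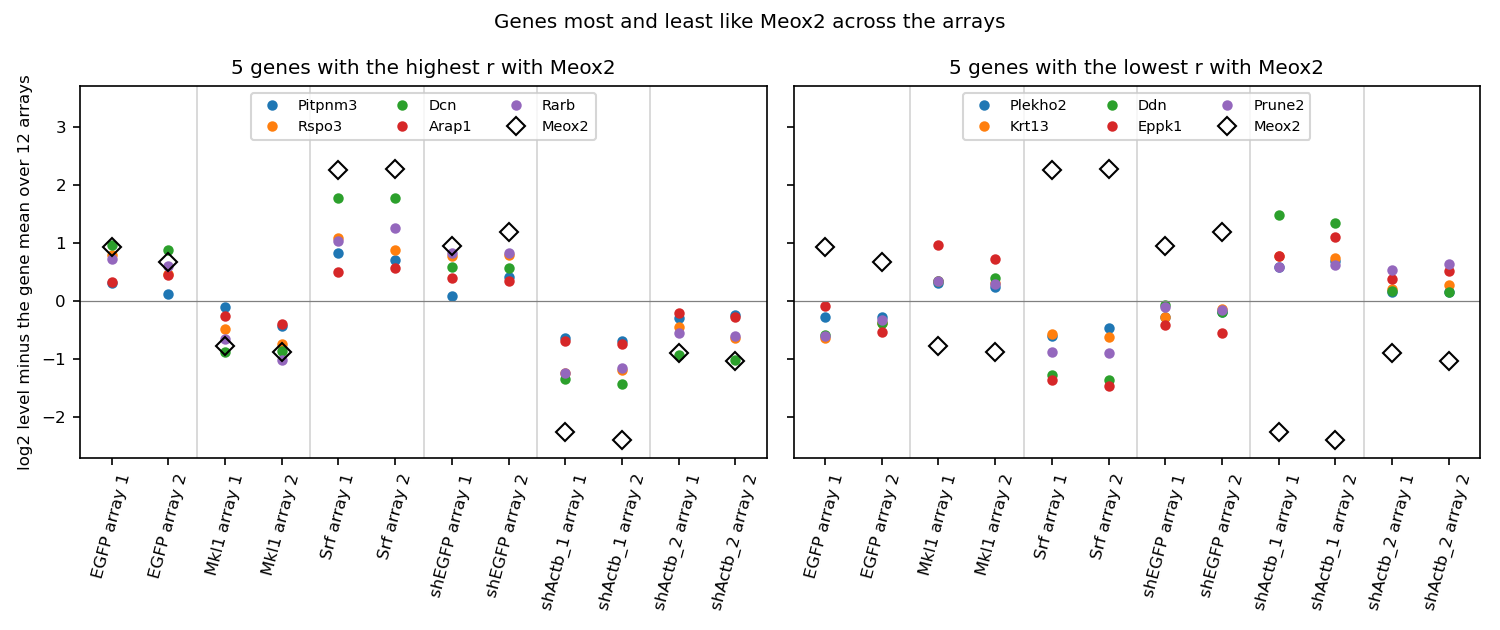
Log2 level minus the mean of each gene over the arrays (y) on the 12 arrays (x), for Meox2 (diamonds) and the 5 genes with the highest (left, r 0.969 to 0.978) and lowest (right, r -0.978 to -0.937) correlation. Dcn and Meox2 both lie below 0 with Mkl1 and both hairpins, where Eppk1 lies above it.

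The pattern that chose Meox2 can be counted over the array. Of 32454 probes tested in all 4 comparisons, 2324 (7.16%) were higher on the arrays labelled Srf and lower in the other 3 in sign alone, and 11 differed by over 2-fold in all 4, Meox2 among them. From the others Dkk1 and Fbln5 are named after their values were seen. Dkk1, a secreted Wnt inhibitor, differed by 2.5, -2.41, -3.32 and -1.40 for Srf, Mkl1, shActb_1 and shActb_2. Fbln5, an elastic fibre protein, differed by 2.57, -1.20, -1.05 and -1.12. The comparisons share controls, so these counts describe the selection and are not tested.

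Other mesenchymal and EMT transcription factors moved in both directions. In that list of 24 genes, 5 of 25 tested probes were called on the arrays labelled Srf (5.54% of all probes), 3 higher and 2 lower, with a median difference of 0.34 beside -0.04 for all probes. Foxc2, a forkhead factor of mesoderm and lymphatic vessels, rose by 2.49 (SE 0.14, adjusted p = 3.7e-05), followed by Hand2 (1.47) and Lef1 (1.36), while Alx1, a homeodomain factor of craniofacial mesenchyme, fell by 1.61 (SE 0.09, adjusted p = 3.77e-05) and Runx2, a factor of bone formation, fell by 1.11 at 1 of its 3 probes. With Mkl1, 4 of 24 were called (2.78% of all probes, median 0.00), namely Foxc2 (1.08) and Sox9 (1.04) higher and Foxc1 (-1.39) and Prrx2 (-1.09), the paralog of Prrx1, lower. With shActb_1, 3 of 23 were called (1.61% of all probes, median -0.02), and all were lower, Foxc1 (-1.27), Prrx2 (-1.06) and Osr2 (-1.01). With shActb_2, 5 of 23 were called (6.31% of all probes, median 0.18), with Foxf2 (1.67), Sox9 (1.02) and Lef1 (1.01) higher and Osr2 (-1.46) and Foxc1 (-1.23) lower. Foxc1, also a forkhead factor of head mesenchyme, was thus called lower with Mkl1 and with each hairpin.

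The E proteins and Id inhibitors that set how Twist factors pair were called in both directions. In 7 genes with 10 tested probes, limma called none on the arrays labelled Srf (median -0.30, 6 at an unadjusted p under 0.05 beside 38.2% of all probes), and 1 was called with Mkl1, the E protein Tcf4 (-1.32, adjusted p = 0.00108), whose other probe read -0.51. Id2 fell with shActb_1 (-1.15, adjusted p = 0.0164) and rose with shActb_2 (1.0, adjusted p = 0.00845), and these were the only probes of the list called in those comparisons, beside 1.61% and 6.31% of all probes (2.78% with Mkl1). Directly compared, Id2, Id4 and Id3 were higher with shActb_2 by 2.15, 1.34 and 1.17 (adjusted p = 0.000678, 0.000706 and 0.000941), and Id1 by 1.06, the 4 called of 10, beside 5.03% of all probes. Id4 and 1 probe of Tcf4 (1.02, against 0.17 at the other) were called higher on the arrays labelled Srf than with Mkl1, and Id4 was called lower with shEGFP than with EGFP. Among 10 somite factors and genes reported as Meox targets, with Cdkn1a and Cdkn2a included, limma called 0 of 14 probes on the arrays labelled Srf, 0 of 13 with Mkl1 and 0 of 11 with shActb_2 (7, 6 and 1 at an unadjusted p under 0.05, beside 38.2%, 35.5% and 49.4% of all probes), and with shActb_1 the somite factor Mesp2 (-1.10, adjusted p = 0.0308) was the 1 probe called of 11, beside 1.61% of all probes, while Pax9 was at -0.94, under 2-fold.

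Epithelial genes, which Snai and Zeb factors repress, were called mostly higher. With shActb_2, 6 of 20 tested probes were called, beside 6.31% of all probes, and all 6 were higher (5 of 18 on all arrays compared, as Cdh1 entered the test through shActb_2 alone), led by the keratin Krt19 (1.89, adjusted p = 2.42e-05), the claudin Cldn3 (1.76, adjusted p = 0.00182) and the desmosomal protein Dsp (1.69, adjusted p = 0.000107). With shActb_1, 2 of 20 were called (1.61% of all probes), Krt19 (1.07) and Krt18 (1.07), and with Mkl1 2 of 20 (2.78% of all probes), Dsp (1.37) and Krt8 (1.05). On the arrays labelled Srf, 3 of 20 were called (5.54% of all probes), as Dsp (1.54) and Cldn3 (1.44) rose and Krt19 fell by 1.07. The list medians were -0.14, 0.15, 0.15 and 0.08 for Srf, Mkl1, shActb_1 and shActb_2, and between the controls 6 of 21 probes were also called, 5 of them lower with shEGFP, beside 10.2% of all probes. Of the 17 probes above background on all arrays compared, 4 were called there, 3 of them lower.

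Mesenchymal genes were split as well. On the arrays labelled Srf, 6 of 26 probes were called, 5 higher, beside 5.54% of all probes, and of the 23 probes well above background on all arrays compared 4 were called, 3 higher. Lum, a matrix proteoglycan, was not well above background in EGFP and entered the test through the arrays labelled Srf alone. It had to be higher there to enter, and its bound was at least 11.8-fold. Tnc was called at 1 of its probes (2.83, against 0.70 at the other). The fibroblast protease Fap rose by 1.61 and Thy1, a surface glycoprotein, by 1.49, while the collagen gene Col1a2 fell by 1.1. With Mkl1, 5 of 25 were called, or 4 of the 23 on all arrays compared, beside 2.78% of all probes, with Thy1 up by 3.09, Itga5 by 1.25 and the same Tnc probe at 1.41, and with Fap and Dcn at -2.21 and -1.79. With shActb_1, Thy1 rose by 1.63 whereas Dcn (-1.96) and Fap (-1.69) fell, and with shActb_2 Thy1 rose by 2.90 and Dcn fell by 1.55, which makes 3 and 2 of 25, beside 1.61% and 6.31% of all probes. Of the 24 probes well above background on all arrays compared, 2 were called with each hairpin, as Fap entered the shActb_1 test through shEGFP alone. The list medians were 0.17, -0.03, -0.12 and -0.21 in the order Srf, Mkl1, shActb_1 and shActb_2. The called Tnc probe was well above background on 1 of the 2 EGFP arrays and entered these tests through the group in which it was higher. Fap was well above background on 1 of the 2 shActb_1 arrays. Fap differed by 0.50 with shActb_2 and was not called there. Thy1 was thus called higher in all 4 comparisons with a control, and Dcn lower with Mkl1 and each hairpin.

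**Figure D4:**
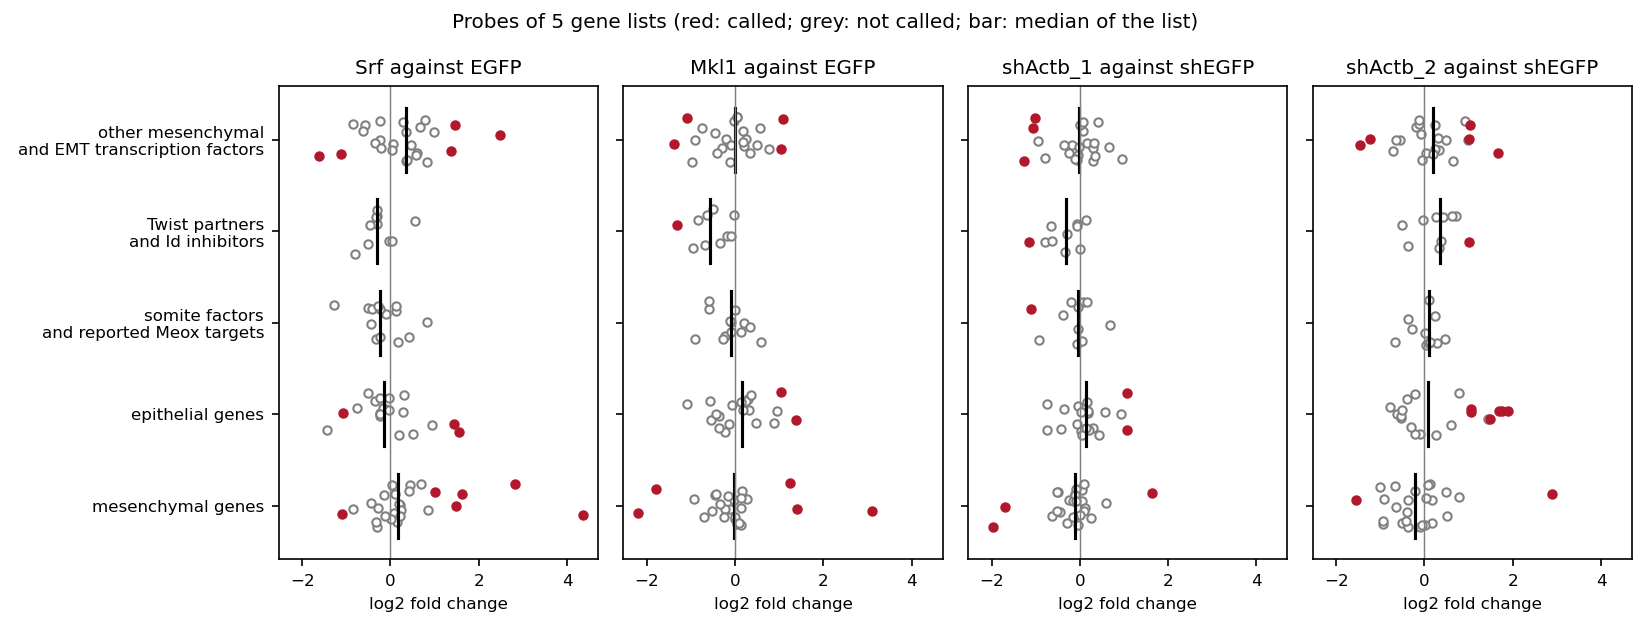
Log2 fold changes (x) of the probes of 5 gene lists (y) against the control, with called probes in red and the list median as a bar. Medians stay between -0.57 and 0.36, called probes lie on both sides of 0 in most lists, and the epithelial genes called with shActb_2 all lie right of it.

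Markers of mural and fibroblast cells moved with some of these results. Of 8 mural cell and smooth muscle markers, 4 were well above background on all arrays. Their signals relative to the 75th percentile, summed over the list, were 1.84 to 2.18 in EGFP, 1.15 to 1.37 with Mkl1 and 2.26 to 2.31 on the arrays labelled Srf, and 2.09 to 2.16 with shEGFP, 0.918 to 0.948 with shActb_1 and 1.14 to 1.46 with shActb_2. Without Pdgfrb, a step chosen after the values were seen, the sums were 0.754 to 1.02 in EGFP, 0.847 to 0.964 with Mkl1 and 0.985 to 0.990 on the arrays labelled Srf, where EGFP overlapped each of the others, and 0.560 to 0.642 with shEGFP, 0.492 to 0.537 with shActb_1 and 0.703 to 0.995 with shActb_2. The median difference over the tested markers was 0.21 on the arrays labelled Srf, -0.24 with Mkl1, -0.34 with shActb_1 and 0.54 with shActb_2. The pericyte markers Rgs5, Kcnj8 and Abcc9 were not well above background on all arrays. Pdgfrb, the PDGF receptor of pericytes, fell by 1.69 with Mkl1 (adjusted p = 0.000478), by 1.87 with shActb_1 (adjusted p = 0.000379) and by 1.75 with shActb_2 (adjusted p = 0.000188). Myh11, a smooth muscle myosin likewise not above background on all arrays, was with Mkl1 at least 5.18-fold higher. It was also at least 2.08-fold higher on the arrays labelled Srf and at least 3.88-fold higher with shActb_2, and in each case it entered the test through the group in which it was higher. For 6 fibroblast markers, 5 on all arrays, the sums were 170 to 171 in EGFP, 99.9 to 120 with Mkl1, 97.5 to 101 on the arrays labelled Srf, 134 to 142 with shEGFP, 103 to 114 with shActb_1 and 80.5 to 83.6 with shActb_2. Such sums weigh the brightest genes most. The median difference was 0.05 on the arrays labelled Srf, -0.71 with Mkl1, -0.49 with shActb_1 and -0.65 with shActb_2. On the arrays labelled Srf, Col1a2 (-1.10), Col3a1 (-0.84) and Pdgfra (-0.34) were lower, while Col1a1 (0.44), Dcn (0.85) and Lum were higher. The part of such cells in the Meox2 values was not tested.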

How the data were processed

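Total RNA of 12 NPC samples was hybridized to 1-colour Agilent arrays, and the deposited intensity of each spot came from the authors' Feature Extraction 11.5.1.1 run, background-subtracted but with no normalization between arrays. The authors also deposited a table of log2 values. These lay within 0.01 of the percentile-shifted values computed here once the median difference of each array was taken off. From the processed intensity, log2 was taken, control spots and outlier-flagged spots were left out, replicate spots were averaged, and each array's 75th percentile (843 to 1150) was taken off. Transcript accessions named 28026 of 55681 probes (50.3%) through the RefSeq table of GRCm38.p6. All 12 arrays entered 1 limma 3.58.1 fit (R 4.3.3) with 1 mean per group. A probe was tested where both arrays of one compared group, or of the other, were well above background. Calls needed a Benjamini-Hochberg adjusted p under 0.05 over all probes tested and a fold change over 2, all two-sided. The methods of the study give a percentile shift and a filter on low signals for the arrays and name no test. The members and the lists were chosen with earlier results of these data known.

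Named were all member probes, the targeted genes, up to 3 called increases and 3 called decreases per list and comparison, and the 5 genes most and least like Meox2, with exceptions said where they occur. The fit was tested on simulated data. Alternatives were normexp background correction (offset 50, on median spot signals), quantile normalization, the deposited table, other filters on dim probes, a fit of the compared arrays alone, a replicate block, a variance trend with robust estimation, 1 probe per gene, an adjusted p alone, and each array left out. The number of arrays limits the precision.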

Additional observations from a re-analysis of the deposited data

Results flagged for a closer look

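These genes are set out because their direct difference between the hairpins, shActb_2 against shActb_1, passed the test with over 2-fold. Meox2 was higher with shActb_2 by 1.36 on the log2 scale. Of the other transcription factors and their partners, Foxf2 was higher by 1.52, Id1 by 1.06, Id2 by 2.15, Id3 by 1.17 and Id4 by 1.34. The epithelial genes Cldn3 and Dsp were higher by 1.61 and 1.26, and the mesenchymal genes Fap and Thy1 by 2.19 and 1.27. Fap was well above background on 1 of the 2 shActb_1 arrays and entered the test through shActb_2 alone. Among the cell type markers, Fabp7 was higher by 1.02 and Sox1 was lower (-1.04, and -0.53 at its other probe). Myh11, not well above background with shActb_1, was at least 3.98-fold higher (fitted difference 2.37). Over all probes, 635 were called higher and 1146 lower with shActb_2, but this balance turned without shActb_2 replicate 2 (1172 higher and 802 lower), with 1 probe per gene (363 and 326) and at an adjusted p alone (5920 and 5448), and quantile normalization gave 632 and 685. Its arrays lie on a slide of their own, so hairpin and slide cannot be told apart.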

How the results depend on the processing

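Over the alternatives, 825 of 862 probe values were labelled the same as in the main fit. The rest were labelled reversed (23), moved in size (8) or weaker (6). The member counts given above for Srf against EGFP, Mkl1 against EGFP, shActb_1, shActb_2, Srf against Mkl1, the hairpins and the controls became 7, 3, 3, 3, 7, 4 and 1 at an adjusted p alone, beside 25.5%, 20.8%, 9.42%, 40.3%, 25.6%, 32.1% and 37.5% of all probes, with Meox1 included in both counts of 7. They became 1 for Srf against EGFP and 1 for Srf against Mkl1 (Twist2) where probes had to be above background on all arrays compared. For Mkl1 against EGFP the count of 2 became 1 after normexp, 0 with the compared arrays only and 1 with 1 probe per gene, and 1 to 2 when an array was left out, with 1 without EGFP replicate 1 or Mkl1 replicate 2. For shActb_2 it became 0 with 1 probe per gene. Meox2 moved after normexp as given above, and quantile normalization gave -3.21 for shActb_1, -1.87 for shActb_2 and 2.98 for Srf against Mkl1.

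The replicate block left the counts at 2, 2, 0, 1, 2, 0 and 0, and over all probes it gave 2036 calls for Srf in place of 1970 and 1023 for Mkl1 in place of 995. Deviations of same-numbered arrays correlated at -0.002 to 0.261 in 2 pairs per comparison, too few to show or exclude a shared batch, and the labels state none. A slide term was not run, because each group lies on 1 slide.

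Some small, uncalled differences changed sign. For Mkl1 against EGFP, quantile normalization gave -0.0097 for Twist2 and normexp gave 0.033 for Snai1, and for shActb_2 quantile normalization gave -0.032 for Zeb1. Leaving out arrays gave, for Mkl1 against EGFP, -0.062 to 0.17 for Twist2, -0.11 to 0.077 for Snai1 and -0.29 to 0.032 for Snai2, and for Srf against EGFP -0.026 to 0.16 for Snai1. For shActb_1 it gave -0.14 to 0.048 and -0.21 to 0.22 for Zeb2 probes 1 and 2, for shActb_2 -0.096 to 0.088 and -0.23 to 0.37, and between the hairpins -0.24 to 0.36 for probe 2. Between the controls it gave -0.013 to 0.22 for Twist2, -0.086 to 0.23 for Snai2, -0.053 to 0.13 for Zeb2 probe 1 and -0.25 to 0.11 for Prrx1 probe 2. The cause was not tested. Over all probes, normexp lowered the calls for Srf from 1970 to 842, for Mkl1 from 995 to 367, for shActb_1 from 582 to 250 and for shActb_2 from 2281 to 688. Mkl1 had 126 calls with the compared arrays only and 2210 without EGFP replicate 2, and shActb_2 had 3444 without its replicate 1.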

Other observations

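Of the probes of 5 neuronal markers, 3 of 5 tested fell with Mkl1 and 3 of 6 with each hairpin, beside 2.78%, 1.61% and 6.31% of all probes called with Mkl1, shActb_1 and shActb_2. Stmn2, a microtubule regulator of growing axons, fell with Mkl1 (-1.46), shActb_1 (-1.41), shActb_2 (-1.29) and most on the arrays labelled Srf (-3.88), and Map2, a dendritic protein, fell with Mkl1 (-1.55), shActb_1 (-1.30) and shActb_2 (-1.14), whereas Tubb3 rose by 1.53 on the arrays labelled Srf. The summed marker signal was 7.15 to 8.31 in EGFP, 2.78 to 3.23 with Mkl1, 2.55 to 2.71 on the arrays labelled Srf, 6.74 to 6.90 with shEGFP, 2.97 to 3.25 with shActb_1 and 3.25 to 3.41 with shActb_2. Such a sum weighs the brightest genes most, and Stmn2 went from a log2 level of 2.41 in EGFP to -1.47 on the arrays labelled Srf. There 2 of 5 tested probes were called, beside 5.54% of all probes, Stmn2 lower and Tubb3 higher, and no Map2 probe was. The median difference there was -0.87. Among the neural progenitor markers, the glutamate transporter Slc1a3 fell with Mkl1 (-1.37), shActb_1 (-1.30) and shActb_2 (-1.11), Sox2 fell by 1.05 on the arrays labelled Srf and by 1.01 with shActb_1, and Nes rose by 1.16 with Mkl1. Fabp7 fell by 1.27 with shActb_1, and with shActb_2 Sox1 fell by 1.15 (-0.73 at its other probe). A Pax6 probe that entered the test through shActb_2 alone was called higher there, and the other Pax6 probe differed by 0.57.

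Esrrb, an orphan nuclear receptor of embryonic stem cells, rose by 2.53 on the arrays labelled Srf (adjusted p = 1.62e-05), the only one of 7 tested probes of stem cell markers called there, beside 5.54% of all probes. On the same arrays Csf1r rose by 1.44 (1.14 and 0.05 at its other probes) and Tmem119 fell by 2.09 among microglial markers, Tfap2a, a neural crest marker, fell by 1.39 (-0.33 at its other probe) and Esam, an endothelial marker above background on both EGFP arrays and 1 labelled Srf, fell by 1.27. In limma 0 of 4 astrocyte and 0 of 7 oligodendrocyte probes were called in each comparison of Srf, Mkl1 or a hairpin with its control, with 1 to 3 of each at an unadjusted p under 0.05, beside 22.7% to 49.4% of all probes.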
